A study of Homo sapiens with 4 samples.

Results

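Microtubules are hollow fibres of alpha and beta tubulin, and human cells make each subunit from several genes, called isotypes, whose proteins are similar in the folded body and differ most in the acidic tail at the C terminus. The 10 genes described here are the listed alpha genes TUBA1A, TUBA1B, TUBA1C and TUBA4A and the listed beta genes TUBB, TUBB2A, TUBB2B, TUBB3, TUBB4B and TUBB6, each matched by its symbol, out of 35606 genes in the count table. All 10 had enough counts to be tested, among 14750 genes that were. The genes were listed after the counts of these same libraries had been compared, so they count as chosen by their difference between the groups, which is given as a description, with no p-value. TUBA1B, TUBA1C, TUBB and TUBB4B are the common isotypes of dividing cells, whereas TUBA1A, TUBB2A, TUBB2B and TUBB3 are best known from developing neurons. New tubulin is folded by prefoldin, the chaperonin CCT and a set of tubulin cofactors, and cells lower tubulin mRNA when free dimers accumulate, through TTC5, which binds the first residues of the growing chain.

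RNA-seq was made from K562 cells, a human line from chronic myelogenous leukaemia that expresses erythroid genes. The first group, JAZF1-SUZ12, held 2 libraries labelled with that fusion, which joins a partner of the NuA4/TIP60 acetyltransferase to SUZ12, a core subunit of Polycomb repressive complex 2. The second group, mock, held 2 libraries of K562 cells. Both groups share the line and carry no other stated treatment. How the fusion was expressed, its promoter, the time point and whether the cells were a clone are not given in the sources used here, and nothing says that the replicates were separate cultures, so their spread may be technical. The labels name the uterus as the source, although the sample titles name K562.

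The libraries held between 17260936 and 24423028 estimated counts. JAZF1 had 574 and 731 counts under the fusion label and 12 and 27 under the mock label, and SUZ12 had 4754 and 6582 against 2781 and 2798, so both partner genes were higher where the fusion was labelled. All 10 erythroid marker genes were present, summing to between 11248 and 11604 CPM, the counts scaled to a library total of 1000000, in mock and between 13207 and 13347 with the fusion. Of these 10 markers, 4 rose and 0 fell by edgeR at an adjusted p under 0.05. By the same threshold, 13.3% of the 14750 genes rose and 11.4% fell. The part of the erythroid markers in the tubulin values was not tested. The 7 markers of endometrial stroma summed to between 5.49 and 8.52 CPM, and LUM was at 0 in every library. Of 15 neuronal markers, 5 were at 0 in every library, namely STMN2, NEFL, NEFM, INA and ELAVL4. In bulk RNA, fewer cells of a type and less RNA per cell cannot be told apart.

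The end of the coding region of TUBB2A and TUBB2B shows how close paired isotypes are, which matters here because reads had to be divided among them. The last 60 coding bases before the stop codon encode the acidic tail and are printed 5′ to 3′ on the coding strand (GENCODE release 29, GRCh38). The capital marks the base of TUBB2B that differs from TUBB2A.
TUBB2A: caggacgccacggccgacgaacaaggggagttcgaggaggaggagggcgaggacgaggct
TUBB2B: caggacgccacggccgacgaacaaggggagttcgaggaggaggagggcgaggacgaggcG
These stretches lie at chr6:3153866-3153925 (TUBB2A) and chr6:3224754-3224813 (TUBB2B), both on the minus strand, and differ at 1 of the 60 bases. Over the whole coding sequence, TUBA1A and TUBA1B differed at 38 of 1353 bases, an identity of 97.2%, and TUBB2A and TUBB2B at 24 of 1335, an identity of 98.2%.

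The first 12 coding bases are shown because they encode the residues read by TTC5.
TUBA1A: atgcgtgagtgc
TUBA4A: atgcgtgaatgc
TUBB: atgagggaaatc
TUBB2A: atgcgcgagatc
TUBB2B: atgcgtgagatc
TUBB3: atgagggagatc
TUBA1B and TUBA1C carried the same 12 bases as TUBA1A, TUBB4B the same as TUBB, and TUBB6 the same as TUBB3.

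Promoter sequence is shown for the paired genes because one gene of each pair differed strongly between the groups and the other did not. The 250 bases upstream of the transcript start are from RefSeq (GRCh38.p14), which held a promoter for 10 of 10 genes, and are printed 5′ to 3′ on the gene's strand. Capitals mark matches, on either strand, to TATAAA or TATATA, to CCAAT, to GGGCGG or to ACGTCA. Matches can touch or overlap, as in the 2 ACGTCA matches of TUBB2A, which lie on opposite strands of 1 palindrome.
TUBA1A: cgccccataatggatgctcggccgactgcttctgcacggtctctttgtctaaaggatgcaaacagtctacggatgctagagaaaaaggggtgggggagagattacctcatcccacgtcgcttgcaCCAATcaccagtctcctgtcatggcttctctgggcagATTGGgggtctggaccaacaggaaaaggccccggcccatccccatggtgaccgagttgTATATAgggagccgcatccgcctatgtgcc
TUBA1B: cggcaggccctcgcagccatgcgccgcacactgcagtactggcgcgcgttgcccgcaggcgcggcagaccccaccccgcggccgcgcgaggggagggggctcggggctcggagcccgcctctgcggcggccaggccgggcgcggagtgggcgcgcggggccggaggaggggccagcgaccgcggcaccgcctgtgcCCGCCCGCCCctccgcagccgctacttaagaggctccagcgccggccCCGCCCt
TUBB2A: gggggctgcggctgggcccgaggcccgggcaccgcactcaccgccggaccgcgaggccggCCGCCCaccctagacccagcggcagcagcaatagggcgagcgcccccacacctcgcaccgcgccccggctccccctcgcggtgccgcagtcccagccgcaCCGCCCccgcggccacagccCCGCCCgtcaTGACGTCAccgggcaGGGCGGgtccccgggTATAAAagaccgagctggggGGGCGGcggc
TUBB2B: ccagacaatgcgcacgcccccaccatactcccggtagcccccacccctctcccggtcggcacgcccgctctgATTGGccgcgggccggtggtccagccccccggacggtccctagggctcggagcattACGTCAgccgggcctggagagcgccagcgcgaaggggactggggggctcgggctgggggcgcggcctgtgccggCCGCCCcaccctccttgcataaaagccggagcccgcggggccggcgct
The windows are chr12:49189081-49189330, chr12:49131396-49131645, chr6:3157545-3157794 and chr6:3227654-3227903, in the same order and all on the minus strand. The TUBA1A window held 1 TATATA and 2 CCAAT matches, a GC content of 56.4% and 11 CpG dinucleotides. The TUBA1B window held 3 GGGCGG matches, a GC content of 81.2% and 38 CpG dinucleotides. TUBB2A had 1 TATAAA, 5 GGGCGG and 2 ACGTCA matches at 79.2% GC, and TUBB2B had 1 CCAAT, 1 GGGCGG and 1 ACGTCA match at 75.2% GC. Among 35116 RefSeq promoter windows of the same length, the median GC content was 58% and the median number of CpG dinucleotides was 11. TATAAA was found in 10.7% of them, TATATA in 3.73%, CCAAT in 32.0%, GGGCGG in 42.6% and ACGTCA in 7.10%. A match is a stretch of letters and not a measured binding site.

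Of the 10 tubulin genes, 2 were higher in JAZF1-SUZ12 libraries (TUBA1A and TUBB2B), 3 were lower (TUBA1C, TUBB and TUBB4B) and 5 were not called, at an adjusted p under 0.05 by edgeR's quasi-likelihood test over all genes. The shares among the 14750 genes were 24.7% called, 13.3% higher and 11.4% lower. Both higher genes were minor isotypes that more than doubled, by 2.31-fold and 2.52-fold, and 5.55% of the 14750 genes were called at 2-fold higher or more. The 3 lower genes were abundant isotypes whose mock level was 1.10-fold to 1.13-fold that with the fusion. The median log2 fold change of the 10 genes was -0.08, beside 0.00 over all genes tested and -0.06 over the 7318 tested genes with a mean of at least 500 counts. In the authors' deposited table the same 2 genes were called higher and the same 3 lower, and the sign matched for 10 of 10, where 8.5% of its genes with an adjusted p were called.

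**Figure D1:**
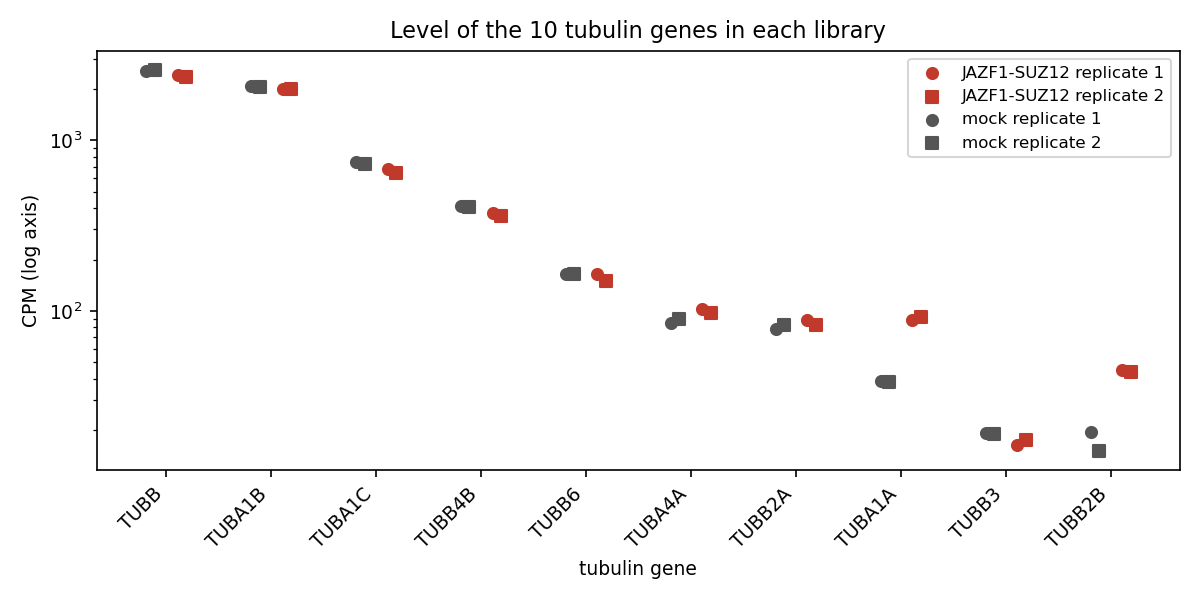
CPM on a log axis for the 10 tubulin genes, ordered by their mock mean; each point is 1 library, grey for mock and red for JAZF1-SUZ12. TUBA1A and TUBB2B lie apart between the groups, from 38.5 to 90.2 CPM and from 17.3 to 44.3 CPM on average, while the points of the abundant genes nearly coincide.

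TUBA1A (ENSG00000167552; chr12:49184796-49189324 in GENCODE 29, GRCh38, minus strand) encodes the main alpha tubulin of young neurons. It had 1520 and 2254 estimated counts in JAZF1-SUZ12 replicates 1 and 2, and 790 and 816 in mock replicates 1 and 2. In CPM these were 88.1 and 92.3 against 38.6 and 38.3. Both JAZF1-SUZ12 libraries lay well above both mock libraries, which differed little from each other. The group means were 38.5 ± 0.230 CPM for mock and 90.2 ± 2.99 CPM with the fusion (SD, n = 2 per group), and the log2 fold change was 1.21 (standard error, SE, 0.06).

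The other alpha genes of the chromosome 12 cluster were lower or not called. TUBA1B (chr12:49127782-49131397, minus strand), the most abundant alpha isotype, had 1993 and 2000.2 CPM in JAZF1-SUZ12 libraries and 2073 and 2054 in mock. The groups did not overlap, but the log2 fold change was -0.07 (SE 0.04) and it was not called. TUBA1C (chr12:49188736-49274603, plus strand) had 678 and 646 CPM in JAZF1-SUZ12 libraries and 746 and 722 in mock. It was called lower, with a log2 fold change of -0.17 (SE 0.04). The annotated TUBA1A and TUBA1C genes overlap by 589 bases on opposite strands, and whether counting used strand is not given in the sources used here, so reads from that overlap cannot be assigned to either with certainty. The summed level of TUBA1A, TUBA1B and TUBA1C was 2836 ± 30.5 CPM for mock and 2749 ± 14.8 CPM with the fusion (SD, n = 2 per group), so the sum was lower although TUBA1A was higher. The difference in means was 51.7 CPM for TUBA1A, -67.1 CPM for TUBA1B and -71.6 CPM for TUBA1C.

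TUBA4A (chr2:219249711-219278170, minus strand), an alpha isotype known from platelets and nervous tissue, had 102 and 96.8 CPM in JAZF1-SUZ12 libraries and 85.4 and 89.3 in mock. The groups did not overlap, and the log2 fold change was 0.16 (SE 0.06). Its call depended on the settings. TUBA4A was called with library totals in place of TMM scaling, with limma-voom, with a filter at a mean of 50 counts and without JAZF1-SUZ12 replicate 2, at 0.18, 0.16, 0.19 and 0.21. It was not called in the edgeR test used here, with DESeq2, with DESeq2 size factors, with no filter or without any 1 of the other libraries, where it was between 0.11 and 0.19.

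TUBB2B (ENSG00000137285; chr6:3224261-3231730, minus strand) encodes a beta tubulin best known from migrating neurons. Its estimated counts were 774 and 1069 in JAZF1-SUZ12 replicates 1 and 2, and 398 and 323 in mock replicates 1 and 2. In CPM these were 44.8 and 43.8 against 19.5 and 15.2. Every JAZF1-SUZ12 value was more than 2-fold above every mock value, and the mock libraries differed more from each other than the JAZF1-SUZ12 libraries did. The log2 fold change was 1.33 (SE 0.10). It depended in size on the mock library used, with 1.51 against mock replicate 2 alone and 1.15 against mock replicate 1 alone.

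TUBB2A, the near-identical neighbour of TUBB2B, lies 66734 bases away on the same strand (chr6:3153669-3157526). Its levels were 87.9 and 82.3 CPM in JAZF1-SUZ12 libraries and 77.9 and 82.5 in mock, so the groups overlapped. The log2 fold change was 0.06 (SE 0.06), and TUBB2A was not called. Taken as 1 gene, which removes the question of how reads were divided between them, TUBB2A and TUBB2B had 97.5 ± 0.233 CPM for mock and 129 ± 4.75 CPM with the fusion (SD, n = 2 per group), a ratio of 1.33. TUBB2B took 20.0% and 15.5% of the pair's counts in mock replicates 1 and 2, against 33.8% and 34.7% with the fusion.

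The remaining beta genes were lower or close to level. TUBB (chr6:30720201-30725426, plus strand), the main beta isotype here and 19th of all genes by mean CPM, which does not allow for length, had 2408 and 2347 CPM in JAZF1-SUZ12 libraries and 2553 and 2587 in mock. Its log2 fold change was -0.13 (SE 0.04) and it was called lower, although not without mock replicate 2, also at -0.13. TUBB4B (chr9:137241213-137243707, plus strand), a broadly expressed isotype also used in cilia, had 373 and 360 CPM in JAZF1-SUZ12 libraries and 411 and 404 in mock, a log2 fold change of -0.17 (SE 0.04). TUBB3 (chr16:89921392-89938761, plus strand), the beta tubulin used as a neuronal marker, had 16.3 and 17.4 CPM in JAZF1-SUZ12 libraries and 19.2 and 18.9 in mock. The groups did not overlap, but TUBB3 was not called (log2 fold change -0.19, SE 0.10). TUBB6 (chr18:12307669-12344320, plus strand) overlapped between groups, at 165 and 150.1 CPM against 164.2 in both mock libraries (log2 fold change -0.08, SE 0.06). The TUBB6 difference depended on the JAZF1-SUZ12 libraries, being -0.17 and called without replicate 1 and -0.0016 without replicate 2. In CPM, 3 of the 10 genes lay higher in both JAZF1-SUZ12 libraries than in both mock libraries, 5 lay lower and 2 overlapped, where 33.8% and 27.2% of all genes tested lay higher and lower in this way.

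**Figure D2:**
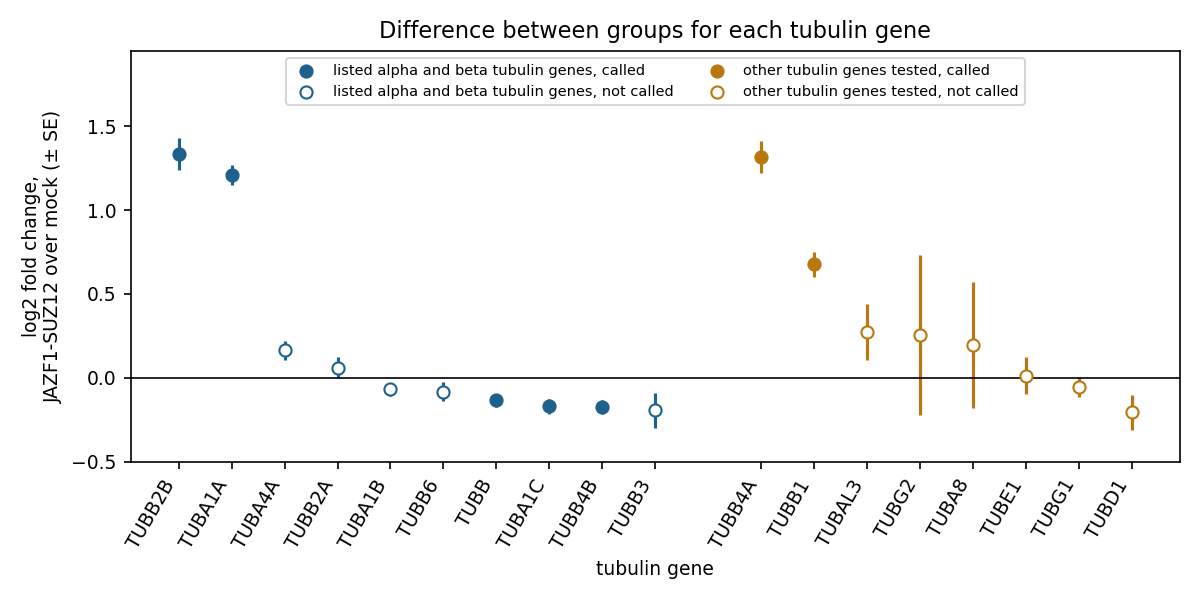
Log2 fold change of JAZF1-SUZ12 over mock with its standard error for the 10 listed genes (blue) and the 8 other tubulin genes tested (orange); filled points passed an adjusted p of 0.05 by edgeR and open points did not. TUBB2B, TUBA1A and TUBB4A stand between 1.21 and 1.33, TUBB1 at 0.68, and the called lower genes between -0.17 and -0.13.

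The isotype composition was described as each gene's share of the estimated counts per base of transcript, within the 4 alpha or the 6 beta genes. Among the 4 alpha genes in mock libraries, TUBA1B made up 77.4%, TUBA1C 19.1%, TUBA4A 2.29% and TUBA1A 1.24%. In JAZF1-SUZ12 libraries these means were 76.7%, 17.6%, 2.67% and 2.99%. TUBA1A stood at 1.24% ± 0.0044 in mock and at 2.99% ± 0.112 with the fusion (SD, n = 2 per group). Among the 6 beta genes, TUBB made up 69.4% in mock and 68.4% in JAZF1-SUZ12 libraries. It was followed by TUBB4B at 18.0% and 17.2%, TUBB6 at 7.69% and 7.86% and TUBB2A at 3.63% and 4.10%. TUBB2B, at 0.618% ± 0.112 in mock, stood at 1.69% ± 0.012 with the fusion (SD, n = 2 per group), beside 0.733% and 0.693% for TUBB3. With TUBB1, TUBB4A and TUBB8 counted in, TUBB4A made up 0.461% of the beta genes in mock and 1.23% with the fusion. TUBB1 then made up 0.522% and 0.893%, and TUBB2B 0.612% and 1.65%. The shares add to a fixed total, so they were not tested.

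The order of the genes by CPM per kilobase in mock was TUBA1B at 1268, TUBB at 962, TUBA1C at 312, TUBB4B at 249, TUBB6 at 107, TUBB2A at 50.3, TUBA4A at 37.5, TUBA1A at 20.4, TUBB3 at 10.2 and TUBB2B at 8.57. No neighbours in this order overlapped between the mock libraries, but TUBB3 and TUBB2B were close, at 10.3 and 10.1 against 9.63 and 7.50 CPM per kilobase. TUBA1A reached 47.8 and TUBB2B 21.9 CPM per kilobase in JAZF1-SUZ12 libraries, still far below TUBA1B at 1227. The levels and their order depend on which transcripts set the length. With the median of all protein-coding transcripts, partial ones included, which was the planned length, TUBA1A made up 0.924% of the alpha share in mock and 2.22% with the fusion, and TUBA4A 3.07% and 3.57%. By the lengths used here, and by the longest transcript (5.05% against 4.27%), TUBA1A was above TUBA4A with the fusion. It was below TUBA4A by the planned length and without length scaling (3.17% against 3.49%).

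Among the beta genes the planned length gave TUBB6 16.5% in mock and 16.8% with the fusion, slightly above TUBB4B at 16.4% and 15.7%. It gave TUBB3 1.67% and 1.57%, beside 0.564% and 1.54% for TUBB2B. The planned lengths of TUBB6 and TUBB3, 656 and 751.5 bases, were however shorter than their coding sequences of 1338 and 1350 bases. By the lengths used here, TUBB4B was above TUBB6, and TUBB2B was above TUBB3 with the fusion. Without length scaling these orders were the same. With the fusion, TUBB4B and TUBB6 had means of 367 and 158 CPM, and TUBB2B and TUBB3 of 44.3 and 16.9. The higher share of TUBA1A and of TUBB2B with the fusion than in mock was found with each of these lengths.

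**Figure D3:**
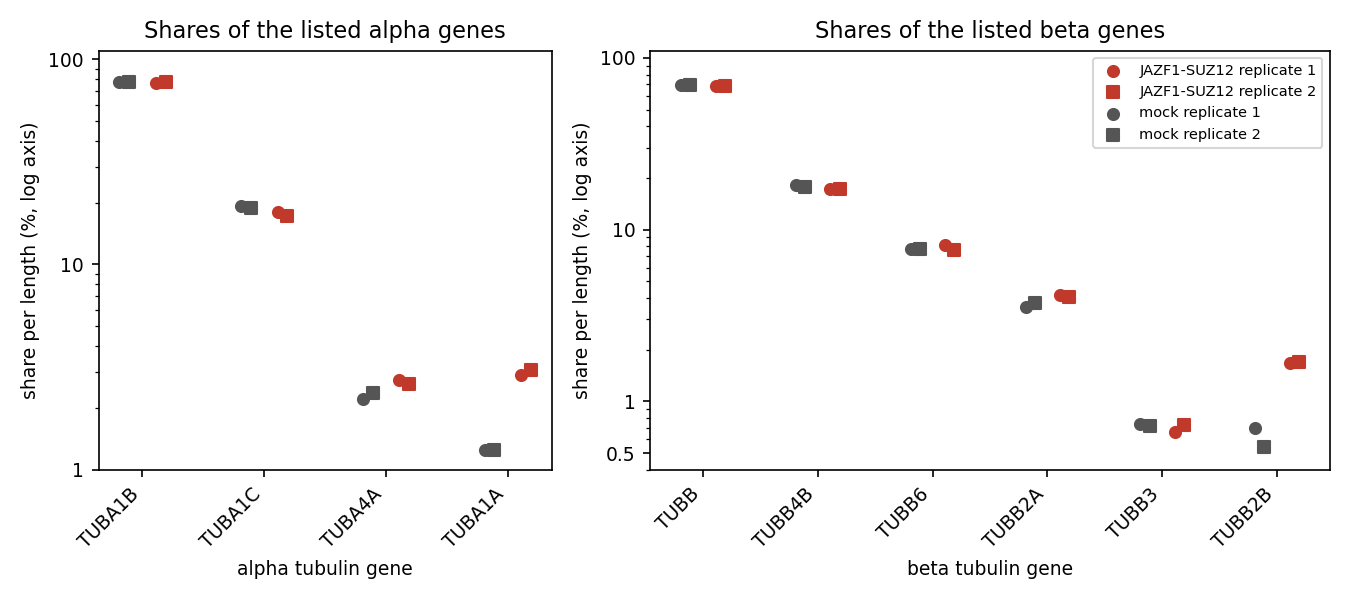
Share of each gene per length, in percent on a log axis, among the 4 alpha genes (left) and the 6 beta genes (right); each point is 1 library, grey for mock and red for JAZF1-SUZ12. TUBA1B and TUBB hold most of each class in every library, and TUBA1A and TUBB2B are the points that part most between the groups.

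How much of each gene can be told from its relatives was measured with words of 31 bases cut from the annotated transcripts. Of the TUBA1A words, 60.6% were found in no other gene, and of the TUBB2B words 46.4%, or 924 words. Their abundant partners were less distinct, since 27.8% of TUBA1B words and 30.0% of TUBB2A words were found in no other gene. TUBB3 shared 50.7% of its words, but the readthrough gene AC092143.1, which overlaps it on the same strand, had 0 counts in every library. TUBB6 and TUBA4A were the most distinct, with 96.1% and 90.4% of words of their own. The pseudogenes TUBAP2 and TUBB2BP1 share words with the alpha and the TUBB2 genes. TUBB4A, described below, shared 244 words with TUBB2A (15.6% of its words) and with TUBB2B (12.3%), and TUBB3 shared 229 with each. The division of reads is therefore uncertain, also between TUBB2B and TUBB4A, and most of all by this measure for TUBA1B and TUBB2A. The measure does not allow for level. TUBA1B, found in 32.1% of TUBA1A words, had 2064 CPM in mock beside 38.5 for TUBA1A. TUBB2A, found in 50.1% of TUBB2B words, had 80.2 CPM beside 17.3 for TUBB2B. The same number of wrongly divided reads would thus be a larger part of TUBA1A and TUBB2B than of their partners.

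**Figure D4:**
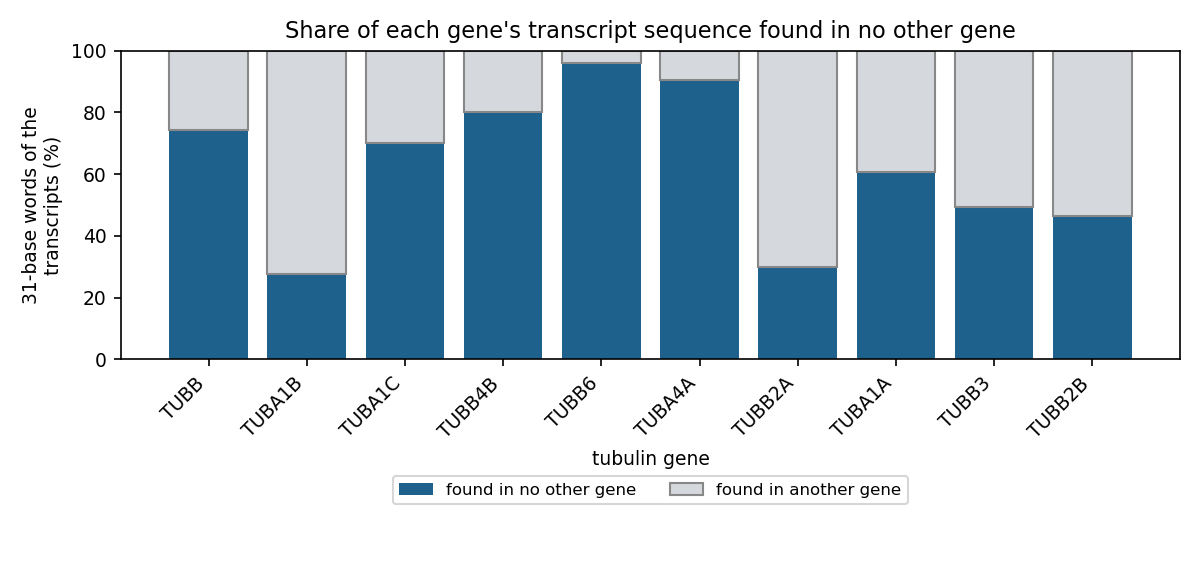
Percent of the 31-base words in each gene's annotated transcripts that were found in no other gene (blue) or in another gene (grey), in order of mock CPM. TUBA1B and TUBB2A have the smallest own part, 27.8% and 30.0%, and TUBB6 the largest, 96.1%.

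Of 13 other tubulin genes, 8 were tested, 2 rose and 0 fell (edgeR, adjusted p under 0.05), where 13.3% of all genes tested were called higher. Also 0 were lower at an unadjusted p under 0.05, with DESeq2 or with limma-voom. TUBB4A, a beta isotype best known from brain, had 711 and 1032 estimated counts in JAZF1-SUZ12 libraries and 302 and 387 in mock. Both JAZF1-SUZ12 libraries lay above both mock libraries in CPM, with means of 41.7 and 16.5, and TUBB4A rose with a log2 fold change of 1.32 (SE 0.09; edgeR, adjusted p = 7.74e-08). Against mock replicate 2 alone it was 1.17, and against mock replicate 1 alone 1.47. TUBB1, the beta isotype of platelets and their precursors, had 695 and 1042 counts in JAZF1-SUZ12 libraries and 521 and 547 in mock, and rose with a log2 fold change of 0.68 (SE 0.07; edgeR, adjusted p = 7.76e-06). The gamma tubulin gene TUBG1, which nucleates microtubules, was not called (log2 fold change -0.06; edgeR, adjusted p = 0.539), nor were TUBG2, TUBD1, TUBE1, TUBA8 and TUBAL3. TUBA3C, TUBA3D and TUBA3E reached no more than 12 counts, TUBB8 at most 1 and TUBB8B 0. Of the other 6 megakaryocyte and platelet markers, PF4, PPBP and GP9 were at 0 in every library, ITGA2B and GP1BA were not called, at 0.02 and 1.04, and GP6 fell from 44.2 to 26.9 CPM (log2 fold change -0.74; edgeR, adjusted p = 2.69e-06). The summed level of the 7 genes, TUBB1 included, was between 108.0 and 108.7 CPM for mock and between 107.1 and 111.7 with the fusion.

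Neuronal genes were counted beside TUBA1A, TUBB2B and TUBB4A because these isotypes are typical of neurons. TUBB2A and TUBB3, also known from neurons, were not called, at 0.06 and -0.19, so not every neuronal isotype was higher. Of the 15 neuronal markers 4 could be tested. The edgeR shares over all genes tested were 13.3% higher and 11.4% lower. SYP, of synaptic vesicles, and MAPT, which is also in the list of microtubule-binding genes, rose, with log2 fold changes of 0.85 and 1.38 (edgeR, adjusted p = 1.25e-07 and 2.90e-06), NEFH fell, at -0.63 (edgeR, adjusted p = 0.00035), and SYN1 was not called. The summed level of the list was between 77.9 and 80.9 CPM for mock and between 110.8 and 111.9 CPM with the fusion. In these sums, SYP had a mean of 39.4 CPM for mock and 71.8 with the fusion. MAPT had 6.13 and 16.2, and NEFH 32.5 and 21.5. SNAP25, MAP2 and DCX reached no more than 4 counts. The part of these genes in the tubulin result was not tested.

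Genes that fold tubulin were called by edgeR in 1 direction, lower. Of 24 genes, with 25 rows because TBCE has 2 gene entries, 8 rows fell and 0 rose, where 11.4% of all genes tested were called lower. In sign, 23 rows lay below 0 and 2 above, where 50.5% of all genes tested and 34.2% of abundant ones lay above 0. The median was -0.14 beside 0.00 over all genes and -0.06 over abundant ones. At an unadjusted edgeR p under 0.05, 12 rows were lower and 2 higher, and DESeq2 and limma-voom called 0 higher and 7 and 9 lower. In the chaperonin CCT, which closes around the new tubulin chain, 5 of 8 subunits fell, namely TCP1, CCT3, CCT5, CCT6A and CCT7, and all 8 lay between -0.27 and -0.08. CCT6A fell from 448 to 378 CPM (log2 fold change -0.27, SE 0.05; edgeR, adjusted p = 0.00083), and TCP1 from 713 to 636 CPM (-0.18, SE 0.04; edgeR, adjusted p = 0.0045). Of the 6 prefoldin subunits only PFDN2 fell, at -0.25 (edgeR, adjusted p = 0.0127). The cofactor gene TBCE is uncertain, since 1 of its entries fell at -0.45 (edgeR, adjusted p = 0.0017) while the other stood at 0.26 and was not called. Leaving out JAZF1-SUZ12 replicate 1 moved the fallen entry to -0.62, and leaving out replicate 2 moved it to -0.28. TTC5 itself was not called (log2 fold change -0.14, SE 0.13; edgeR, adjusted p = 0.469).

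Enzymes that modify tubulin after folding were tested in 22 of 30 cases, of which 5 rose and 0 fell by edgeR, with 0 lower at an unadjusted p under 0.05, with DESeq2 or with limma-voom. The edgeR background was 13.3% for a rise and 11.4% for a fall. VASH2, which removes the last tyrosine of alpha tubulin, had 45 and 90 counts in JAZF1-SUZ12 libraries against 9 and 8 in mock, a log2 fold change of 2.92 (SE 0.41; edgeR, adjusted p = 9.55e-05). VASH1, the related enzyme, had 206 and 284 counts against 132 and 136, at 0.85 (SE 0.15; edgeR, adjusted p = 0.00061). MATCAP2, a relative of the carboxypeptidase MATCAP1, had 247 and 276 counts against 139 and 125, at 0.99 (SE 0.17; edgeR, adjusted p = 0.00044). The partner of the VASH enzymes, SVBP, and the ligase TTL, which puts the tyrosine back, were not called, with log2 fold changes of -0.07 and -0.12. TTLL7 and AGTPBP1, a ligase and a remover of glutamate chains, also rose, at 0.55 and 0.36 (edgeR, adjusted p = 0.0432 and 0.048); they are named after their values were seen. The acetyltransferase ATAT1 and the deacetylase HDAC6 were not called. DESeq2 called 3 of the enzymes higher in place of 5.

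**Figure D5:**
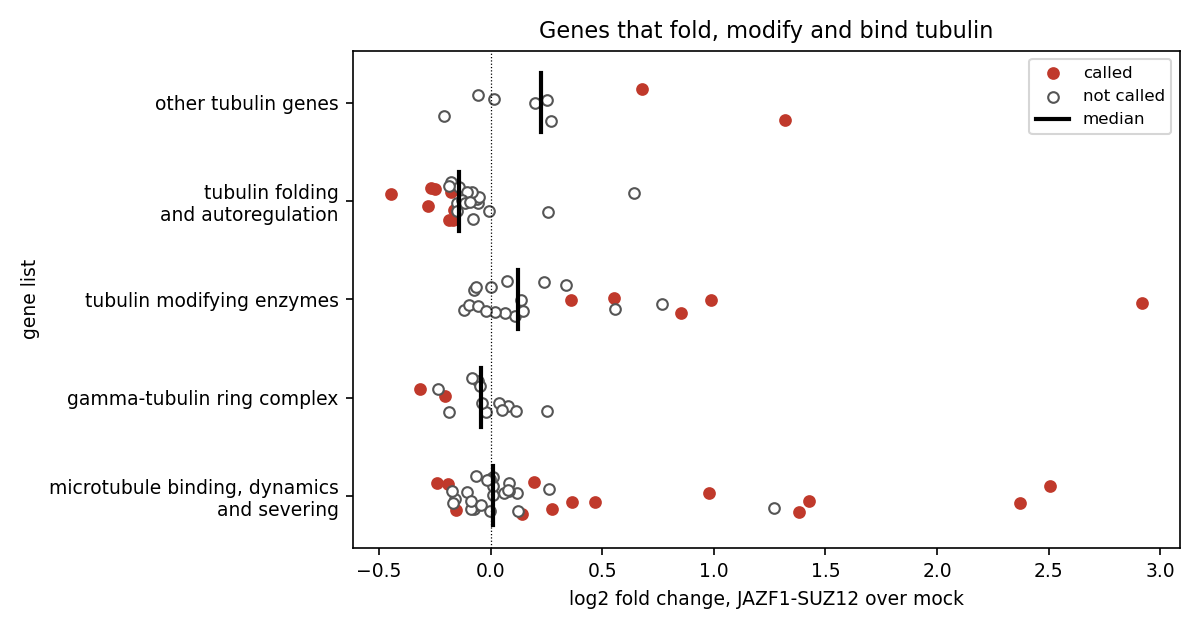
Log2 fold change of each tested gene (points; filled red where called by edgeR at an adjusted p of 0.05) in 5 lists, with the list median as a black bar; points are spread vertically for legibility. The folding list has its median at -0.14 and no called gene above 0, and the modifying enzymes have 5 called genes, all above 0.

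Among the 14 genes of the gamma-tubulin ring complex, which seeds new microtubules, TUBGCP4 and TUBGCP5 fell, at -0.20 and -0.32 (edgeR, adjusted p = 0.0132 and 0.0204), which as 2 of 14 is near the 11.4% called lower over all genes. Neither was called with DESeq2 (adjusted p = 0.0532 and 0.160). In the same complex 0 rose by edgeR, at an unadjusted p under 0.05 too, and 0 by DESeq2 or limma-voom. Of 47 genes that bind, cut or remodel microtubules, 37 were tested, 10 rose and 3 fell, beside 13.3% and 11.4% of all genes tested, with a median of 0.01. MAPT, the axonal protein tau, had 292 and 380 counts in JAZF1-SUZ12 libraries and 126 and 130 in mock, at 1.38 (SE 0.14; edgeR, adjusted p = 2.90e-06). CAMSAP3, which caps minus ends, rose at 0.98 (SE 0.16; edgeR, adjusted p = 0.00032), and MAPRE3, which tracks growing plus ends, at 0.36 (SE 0.06; edgeR, adjusted p = 0.00051). The destabiliser STMN3 and the spindle protein TPX2 fell, at -0.24 and -0.16 (edgeR, adjusted p = 0.0142 and 0.0155). The plus-end protein CLIP1 fell at -0.19 (edgeR, adjusted p = 0.0417). STMN3 was at -0.14 and not called without JAZF1-SUZ12 replicate 2. DESeq2 called 4 of the genes higher, and CLIP1 was lost with DESeq2, with library totals or with a filter at a mean of 50 counts (adjusted p = 0.224, 0.0715 and 0.065).

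Genes within 50 kilobases of the paired tubulin genes were examined because TUBA1A and TUBB2B lie in clusters. Over all genes tested, edgeR called 24.7% in either direction. In the chromosome 12 cluster, 0 of the 4 other tested genes were called by the edgeR, DESeq2 or limma-voom fits made here, and 1 was higher at an unadjusted edgeR p under 0.05. LMBR1L was at 0.18 (edgeR, adjusted p = 0.098), whereas the authors' deposited table called it higher, at 0.43 (adjusted p = 0.047). In the chromosome 6 cluster, the neighbour RIPK1 fell at -0.27 and SLC22A23 rose at 0.22 (edgeR, adjusted p = 0.0109 and 0.032), while BPHL and PSMG4 were not called. The DESeq2 fit made here called 0 of these 4 genes. In the authors' deposited table SLC22A23 was called higher, at 0.52 (adjusted p = 0.0078), and RIPK1 was not called (adjusted p = 0.105). PSMG4 overlaps TUBB2B on the opposite strand and stood at 0.09 (edgeR, adjusted p = 0.397).

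The gene whose levels over the 4 libraries lay nearest to those of TUBB2B, by Euclidean distance of centred log2 CPM among 11825 genes with a mean of at least 50 counts, was CRYM, at a distance of 0.0815, followed by TRIM2 at 0.0994 and NDRG4 at 0.121. TUBA1A was 44th in this order at 0.278 and TUBB4A 184th at 0.456. These distances rest on 4 libraries, and CRYM, the nearest, had between 27 and 112 counts.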

How the data were processed

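Poly(A)-selected, directional RNA-seq libraries from K562 cells were quantified by the authors as estimated counts per gene, deposited as raw counts. The submitters' processing notes name fastp 0.20.1, FastQC 0.11.7, MultiQC 1.5, kallisto 0.46.2, DESeq2 1.30.1 and hg38; the annotation and the use of strand are not given in the sources used here. Fractional values made up 33.9% to 37.4% of each library and were rounded before testing. The authors' deposited comparison holds, per the file headers, a mean signal (baseMean), a log2 fold change, a score (the test statistic) and a p-value with its adjusted p-value.

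Genes were kept with filterByExpr, scaled with TMM and compared by edgeR 4.0.16 (quasi-likelihood test, two-sided, R 4.3.3), with Benjamini-Hochberg adjustment over 14750 genes and 0.05 as the threshold. The standard error of the log2 fold change is approximate. For edgeR it was derived as the size of the log2 fold change divided by the square root of the F statistic. CPM is the rounded count divided by the library total and multiplied by 1000000. Alternatives used DESeq2 1.42.0 and limma 3.58.1, other scalings and filters, the replicate number as a block, and leaving out each library. The edgeR, DESeq2 and limma fits were tested on simulated data. Precision is limited by the 2 libraries of each group.

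The genes, lists and tests were chosen with earlier results of these data known. The rule for named genes took all 10 tubulin genes, up to 3 per list and direction by smallest adjusted p, and the 3 genes nearest in level to TUBB2B. Fusion partners, markers, neighbours, overlapping genes and the other list members were named outside it, after their values were seen. Lengths are medians over transcripts with a consensus coding sequence; this was chosen after lengths and a first version of the shares were seen, because medians over all protein-coding transcripts, as planned, were shorter than the coding sequence for 5 of the 10 genes. Positions are from GENCODE 29. The coding ends of the alpha genes are not reported here.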

Additional observations from a re-analysis of the deposited data

How the results depend on the processing

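Log2 fold changes of the 10 tubulin genes kept their sign in all 7 alternative fits on all libraries, where TUBA1A ranged from 1.20 to 1.23 and TUBB2B from 1.33 to 1.36. When 1 library was left out, TUBA1A ranged from 1.19 to 1.22 and TUBB2B from 1.15 to 1.51, and TUBB2A changed sign within its error, at -0.0021 without JAZF1-SUZ12 replicate 1. At an adjusted p of 0.01, 1 tubulin gene, TUBB4B, was called lower in place of 3, since fewer genes pass a stricter threshold. For folding genes called higher, the count of 0 became 1 with a mean of at least 50 counts, 2 with no filter, 1 with the replicate block and 0 to 2 when 1 library was left out. Modifying enzymes called higher numbered 3 with DESeq2, 3 at an adjusted p of 0.01 and 3 to 5 when 1 library was left out (3 without mock replicate 2), in place of 5. For the gamma-tubulin ring complex, 0 genes were called lower with DESeq2 and 0 at 0.01, in place of 2, and 1 to 2 when 1 library was left out (1 without JAZF1-SUZ12 replicate 2 or mock replicate 2), with 0 to 1 called higher. Microtubule-binding genes called higher numbered 4 with DESeq2, 5 at 0.01 and 6 to 8 when 1 library was left out (6 without mock replicate 1), in place of 10, and those called lower numbered 0 at 0.01 and 0 to 4 when 1 library was left out (0 without JAZF1-SUZ12 replicate 2), in place of 3. The cause of the other changes was not tested. Across all genes DESeq2 called 2052 and edgeR 3643, and library totals put 60.5% of calls higher against 53.7%. Deviations from the group means were not correlated between libraries of the same replicate number (correlation -0.00072 over 14750 genes). With 2 libraries per group this cannot show whether such libraries were handled together. With the replicate number as a block TUBA4A was also called, at 0.16, and 4061 genes were called in all. Call counts with 1 library left out, and the lengths from consensus coding transcripts, were chosen after seeing the data; a lone library is taken to vary like the other group. Values with few counts, such as those of VASH2, are limited by depth.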
